A study of Mus musculus with 6 samples.

Results

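Ikaros, the zinc finger protein encoded by Ikzf1, acts on chromatin through larger protein complexes, and the RNA of 33 of their subunit genes was followed here in thymic tuft cells. The 33 genes were taken by symbol from a named list of NuRD, Sin3, CtBP, SWI/SNF and Polycomb repressive complex 2 (PRC2) subunits, and all 33 were found among the 55471 genes of the expression table. The list holds 15 NuRD genes, 2 Sin3 genes, 2 CtBP genes, 10 SWI/SNF genes and 4 PRC2 genes. Hdac1, Hdac2, Rbbp4 and Rbbp7, which NuRD shares with other complexes, are counted under NuRD only. RNA was sequenced from L1CAM+ tuft cells, chemosensory epithelial cells sorted from mouse thymus. All mice carried floxed Ikzf1 alleles (Ikzf1fl/fl). In 3 samples, labelled WT, the mice were Foxn1-Cre (-), and in 3 samples, labelled KO, they were Foxn1-Cre (+), so that the recombinase is driven from a gene of thymic epithelium. No label gives an age or treatment, or says whether samples came from different animals. The p-values therefore describe the spread among these 6 samples, part of which may be technical. The columns of the table are named Het and Ko with numbers 1 to 3, and values below follow that order within each group. Ko was read as the Cre-positive group and Het, a word that no label uses, as the Cre-negative group by elimination.

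NuRD joins a chromatin remodelling ATPase of the CHD family with the histone deacetylases HDAC1 and HDAC2, and in lymphocytes it is the best known partner of Ikaros. Sin3 is a second scaffold for the same deacetylases, and CtBP proteins are corepressors that bind a short motif in Ikaros and in other repressors. SWI/SNF slides and evicts nucleosomes and is associated mostly with open chromatin, whereas PRC2 methylates lysine 27 of histone H3 and is associated with silencing. Many places in these complexes can be filled by either of a pair of paralogues, and this choice is known to change what a complex does.

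Recovered read totals were 12238400 to 31435800 per library. Ikzf1 RNA rose in libraries labelled Ko and stood at 301, 187 and 273 normalized counts across Het, against 1572, 1463 and 1717 across Ko (log2 fold change 2.66 ± 0.30, SE; limma adjusted p = 0.0105). Without Het3 the log2 fold change was 2.73 and the call was lost (limma adjusted p = 0.0621). This goes against a loss of Ikzf1 RNA, and a whole-gene value does not show whether the floxed part was missing, so directions here are between libraries as labelled. All 18 tuft cell markers had means of 857 normalized counts or more, and the list took 0.860% to 1.23% of reads in Het and 1.34% to 1.60% in Ko libraries. Limma called 2 of them, both higher in Ko libraries: Rgs13, a regulator of G protein signalling (adjusted p = 0.00868), and Ptgs1, a prostaglandin synthase (adjusted p = 0.0264). Without Rgs13, an alternative chosen after seeing the data, the shares overlapped, at 0.681% to 1.03% in Het and 0.896% to 1.04% in Ko libraries. Of all 18 markers, 16 had a positive log2 fold change of Ko over Het, or 88.9% against 47.2% of tested genes. At an unadjusted limma p under 0.05, 3 were higher and 1 lower in Ko libraries. Together these are 22.2% against 13.6% of tested genes. Ribosomal protein genes took 2.49% to 2.53% of reads in Het and 3.08% to 3.31% in Ko libraries.

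No subunit passed the test between the groups. Of the 33 genes, 20 had a positive and 13 a negative log2 fold change of Ko over Het, where 47.2% of all 19416 tested genes were positive and 52.8% negative. Limma called 0 members at an adjusted p under 0.05, where it called 0.814% of tested genes, 0.288% as higher and 0.525% as lower in Ko libraries. The median log2 fold change was 0.09 over the members and -0.05 over all tested genes, and the median size regardless of sign was 0.40 and 0.59. At an unadjusted p under 0.05 there were 4 members, or 12.1%, near the 13.6% of all tested genes. Mta1, Mbd2 and Gatad2b were higher in Ko libraries, as were 5.62% of tested genes, and Rbbp7 was lower, as were 7.99%. EdgeR and voom also called 0 members, where they called 0.386% and 0.206% of genes. DESeq2 called Mbd2 and Rbbp7, where it called 6.34% of genes. Of the members, 3 passed an adjusted p of 0.05 in the authors' deposited table, which is 9.09% of them, near the 8.19% of all genes with an adjusted p there. For 14 of the 33 members the limma 95% interval of the fold change lay wholly within 2-fold in either direction, against 18.5% of tested genes. The 14 include Smarca4, Smarca2, Sin3b, Hdac1, Hdac2 and Arid1a. Apart from Chd5, the members lay at the 52.3rd percentile of tested genes by level or higher. Their intervals and fold change sizes were not compared with genes of like level.

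**Figure D1:**
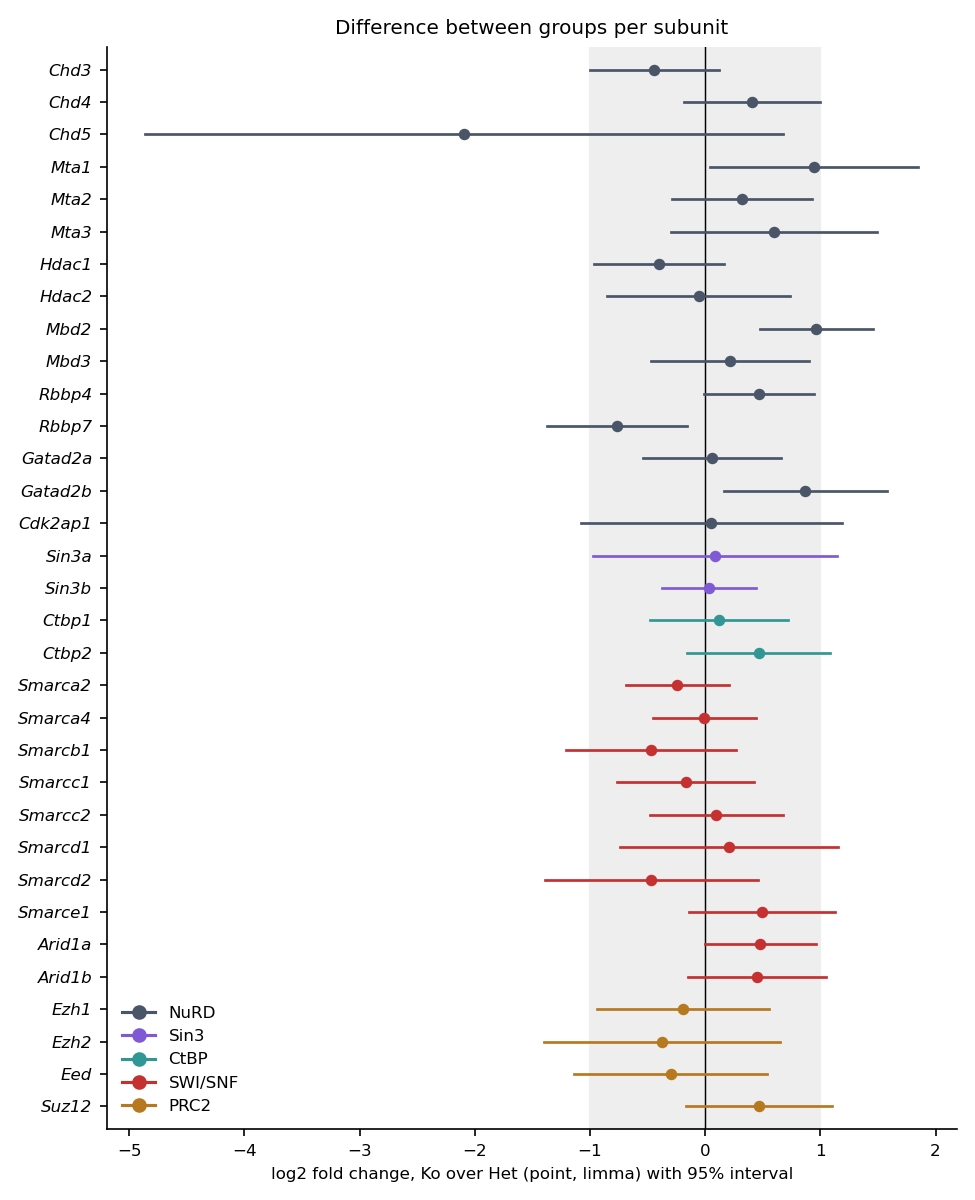
Log2 fold change of Ko over Het for each of the 33 subunits (points) with its 95% interval from limma (lines), coloured by complex; the grey band marks changes under 2-fold. The intervals of Mbd2, Gatad2b, Mta1 and Rbbp7 leave out 0, and none of these genes passed an adjusted p of 0.05.

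In 11 of the 33 members the groups did not overlap, 7 of them higher and 4 lower in every Ko library, where 8.57% of tested genes were apart upward and 9.86% downward. Members higher in each Ko library were Mta1, Mbd2, Rbbp4, Gatad2b, Ctbp2, Smarce1 and Arid1a. Those lower in each Ko library were Chd3, Chd5, Hdac1 and Smarcc1. NuRD held 7 of the 11 among its 15 genes, with the shared genes Hdac1 and Rbbp4 counted under it. The other complexes held 4 among 18 genes. All members were tested, since all had a mean of at least 10 normalized counts. Apart from Chd5, the means of the other 32 lay between 211 and 3723, from the 52.3rd percentile of tested genes upward.

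**Figure D2:**
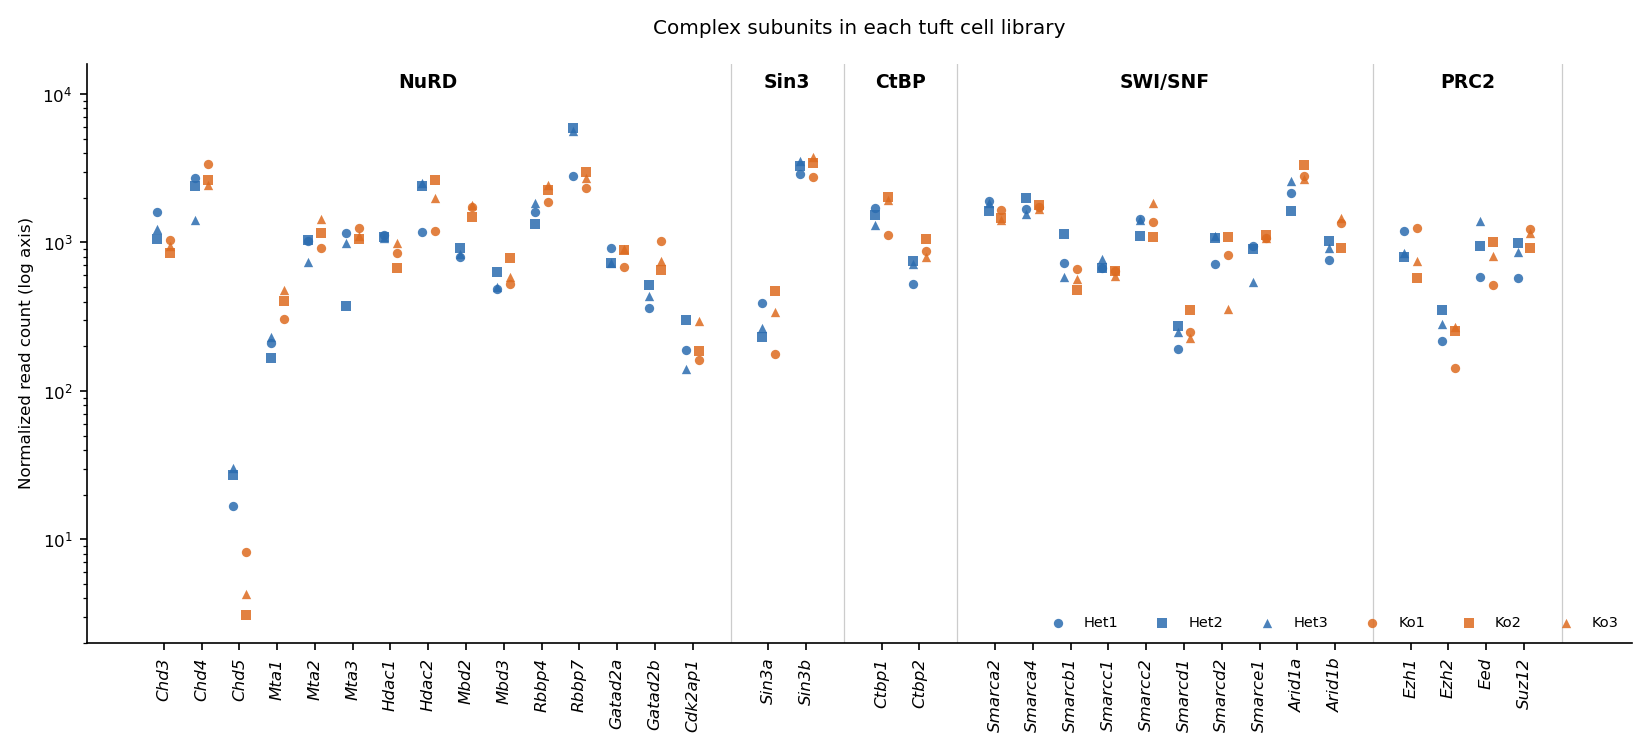
Normalized read count of each subunit (log axis) in the 6 libraries, grouped by complex, with Het libraries in blue and Ko libraries in orange and the library number given by the symbol. Most subunits overlap between the groups; Mbd2 is at 799 to 922 in Het and 1486 to 1785 in Ko libraries, and Chd5 lies far below the others.

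The smallest limma p among the members was that of a methyl-CpG binding subunit of NuRD. Mbd2, which brings NuRD to methylated CpG sites, was at 799, 922 and 834 normalized counts across Het, against 1731, 1486 and 1785 across Ko. Every Ko library lay above every Het library, and the spread within a group was small beside the gap. The means were 852 ± 63.5 and 1667 ± 159 (SD, n = 3 each), a 1.96-fold higher mean in Ko libraries resting on 3306 and 4362 reads. Its log2 fold change came to 0.97 ± 0.22 (SE; limma adjusted p = 0.0865; 0.00411 with DESeq2, 0.0916 with edgeR), and over all alternatives the adjusted p ran from 0.00411 to 0.253. The authors' deposited table gives 0.97 ± 0.18 with an adjusted p of 1.3e-05. Mbd3, which takes the same place in NuRD but binds methylated DNA poorly in mammals, was at 488, 628 and 504 across Het, against 525, 784 and 587 across Ko. Its groups overlapped (log2 fold change 0.22 ± 0.31, SE; limma adjusted p = 0.818).

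The GATAD2 proteins bridge the methyl-CpG binding subunit to the remodelling ATPase. Gatad2b was at 361, 520 and 433 normalized counts across Het, against 1019, 651 and 752 across Ko, so that the groups were apart. Its log2 fold change came to 0.87 ± 0.32 (SE; limma adjusted p = 0.261), and the authors' deposited table gives an adjusted p of 0.0440. Gatad2a was at 921, 727 and 724 across Het, against 679, 890 and 902 across Ko, with overlap of the groups. The accessory subunit gene Cdk2ap1 also overlapped, between 140 and 298 in Het and between 162 and 295 in Ko libraries.

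The MTA proteins are the scaffolds that hold and activate the deacetylases. Mta1 was at 209, 166 and 232 normalized counts across Het, against 305, 401 and 476 across Ko. The groups were apart, with means of 203 ± 33.6 and 394 ± 85.7 (SD, n = 3 each), a log2 fold change of 0.95 ± 0.41 (SE; limma adjusted p = 0.342) and an adjusted p of 0.0361 in the authors' deposited table. Mta2 was at 1026, 1039 and 743 across Het, against 916, 1164 and 1442 across Ko. Mta3 was at 1156, 371 and 996 across Het, against 1253, 1063 and 1112 across Ko. Het2 stood far below the other Het libraries for Mta3, and both Mta2 and Mta3 overlapped between the groups (limma adjusted p = 0.670 and 0.570).

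RBBP4 and RBBP7 are closely related histone-binding proteins shared by NuRD, Sin3 and PRC2, and their fold changes had opposite signs. Rbbp7 was at 2812, 5884 and 5598 normalized counts across Het, against 2333, 2988 and 2720 across Ko. Het1 lay inside the range of the Ko libraries, while Het2 and Het3 were far above it. Its log2 fold change came to -0.76 ± 0.27 (SE; limma adjusted p = 0.254, and 0.0437 with DESeq2), and the authors' deposited table gives an adjusted p of 0.122. Without Het1, limma called Rbbp7, with a log2 fold change of -1.11 and an adjusted p of 0.0456, where 0.549% of tested genes were called. Rbbp4 was at 1614, 1331 and 1832 across Het, against 1885, 2250 and 2449 across Ko. Its groups were apart by a narrow gap between Het3 and Ko1 (log2 fold change 0.47 ± 0.21, SE; limma adjusted p = 0.378).

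Ikaros binds DNA at sites around the core GGGAA, most often within TGGGAA. The promoter windows of Rbbp7 and Gatad2b are shown because both genes had an unadjusted p under 0.05 and hold a match. Mta1 and Mbd2 also had such a p, but the Mta1 window holds 0 matches to either motif and Mbd2 has no window. The windows run from 250 bases before to 50 after the RefSeq transcript start in build GRCm38.p6, which is not the authors' build. Capitals mark TGGGAA or GGGAA on either strand; each match to the longer motif contains the shorter.
Rbbp7, chrX:162760122-162760421, plus strand: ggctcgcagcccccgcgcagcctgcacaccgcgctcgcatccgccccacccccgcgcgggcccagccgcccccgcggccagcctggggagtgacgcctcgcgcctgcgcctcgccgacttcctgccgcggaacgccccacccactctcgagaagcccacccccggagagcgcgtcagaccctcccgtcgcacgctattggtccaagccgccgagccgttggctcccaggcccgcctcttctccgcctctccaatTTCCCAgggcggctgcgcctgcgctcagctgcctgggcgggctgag
Gatad2b, chr3:90293836-90294135, plus strand: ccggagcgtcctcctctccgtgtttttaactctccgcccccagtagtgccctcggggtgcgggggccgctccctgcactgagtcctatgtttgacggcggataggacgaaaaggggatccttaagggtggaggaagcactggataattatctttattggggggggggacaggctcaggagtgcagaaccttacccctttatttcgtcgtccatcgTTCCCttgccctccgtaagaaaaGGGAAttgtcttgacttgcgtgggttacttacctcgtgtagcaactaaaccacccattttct
The Rbbp7 window holds 1 TGGGAA on the minus strand, next to the start. The Gatad2b window holds 2 GGGAA matches and 0 TGGGAA, and a further Gatad2b start has a window with 0 of either. RefSeq gave 35 windows for 28 of the 33 members. TGGGAA lay in 3 of the 35, which is 8.57%, against 25.6% of all 32851 promoter windows of this length, and GGGAA lay in 54.3% against 62.7%. The 3 windows with TGGGAA belong to Ctbp2, Gatad2a and Rbbp7. The members' windows were rich in G and C, with a median of 65.7% against 52.7% over all windows, and held a median of 29 CpG sites against 7. A match is a run of letters, not evidence of binding.

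The CHD ATPases move nucleosomes within NuRD. Chd4, the widely expressed one, was at 2729, 2412 and 1410 normalized counts across Het, against 3374, 2654 and 2425 across Ko. Chd3 was at 1611, 1052 and 1225 across Het, against 1037, 848 and 944 across Ko. Chd3 was thus lower in every Ko library by a narrow gap between Het2 and Ko1, which closed when libraries were rescaled by TMM factors or equal totals (log2 fold change -0.44 ± 0.25, SE; limma adjusted p = 0.494). Chd4 overlapped, with a log2 fold change of 0.41 ± 0.27 (SE; limma adjusted p = 0.558). Chd5, known mainly from neurons and testis, was nearly unread, at 16.8, 27.0 and 30.3 across Het, against 8.23, 3.11 and 4.30 across Ko. These values rest on 89 reads in Het and 14 in Ko libraries, and the fold change was correspondingly uncertain (log2 -2.09 ± 1.24, SE; limma adjusted p = 0.515).

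The deacetylases remove acetyl groups from histone tails in both NuRD and Sin3. Hdac1 was at 1124, 1083 and 1078 normalized counts across Het, against 850, 672 and 998 across Ko. The Het libraries were almost level and every Ko library was lower (log2 fold change -0.40 ± 0.25, SE; limma adjusted p = 0.543). Hdac2 was at 1170, 2388 and 2515 across Het, against 1201, 2615 and 2000 across Ko. Hdac2 varied widely inside each group, with Het1 and Ko1 low, and the groups overlapped (log2 fold change -0.05 ± 0.36, SE; limma adjusted p = 0.970).

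The Sin3 scaffolds overlapped between the groups. Sin3b was at 2901, 3279 and 3509 normalized counts across Het, against 2751, 3430 and 3776 across Ko. Its 95% interval, from -0.38 to 0.44 on the log2 scale, was the narrowest among the members. Sin3a was at 390, 231 and 267 across Het, against 177, 474 and 342 across Ko, and its interval of -0.97 to 1.14 does not leave out a 2-fold difference upward. Per kilobase of exon, Sin3b stood at 439 and 451 in Het and Ko libraries and Sin3a at 54.9 and 61.5, so that Sin3b was the more abundant scaffold RNA in all 6 libraries.

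The CtBP corepressors sense nuclear NADH and recruit histone-modifying enzymes. Ctbp2 was at 527, 748 and 717 normalized counts across Het, against 881, 1062 and 798 across Ko. Its groups were apart, with a 1.38-fold higher mean in Ko libraries (log2 fold change 0.47 ± 0.28, SE; limma adjusted p = 0.517). Ctbp1 was at 1703, 1532 and 1303 across Het, against 1120, 2009 and 1939 across Ko, with overlap and an adjusted p of 0.894 by limma.

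The SWI/SNF ATPases had narrow intervals around small differences. Smarca4, encoding BRG1, was at 1675, 1999 and 1558 normalized counts across Het, against 1720, 1797 and 1669 across Ko. Its log2 fold change was -0.01, with a 95% interval from -0.45 to 0.44 (limma adjusted p = 0.995). Smarca2, encoding the alternative ATPase BRM, was at 1894, 1625 and 1830 across Het, against 1659, 1452 and 1409 across Ko. Its interval ran from -0.69 to 0.20 (limma adjusted p = 0.653).

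The ARID1 subunits, which contact DNA and define the canonical BAF form of SWI/SNF, were both higher on average in Ko libraries. Arid1a was at 2149, 1634 and 2601 normalized counts across Het, against 2788, 3308 and 2681 across Ko. Every Ko library was above every Het library, by a narrow gap between Het3 and Ko3 (log2 fold change 0.48 ± 0.22, SE; limma adjusted p = 0.368). Arid1b was at 766, 1024 and 913 across Het, against 1344, 923 and 1465 across Ko, with Ko2 inside the Het range (limma adjusted p = 0.519).

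Among the core SWI/SNF subunits the groups were apart for Smarce1 upward and Smarcc1 downward. Smarce1 was at 941, 909 and 540 normalized counts across Het, against 1070, 1126 and 1071 across Ko. Smarcc1 was at 674, 675 and 770 across Het, against 645, 646 and 592 across Ko, a 1.13-fold higher mean in Het libraries. Its paralogue Smarcc2 was at 1440, 1099 and 1420 across Het, against 1383, 1083 and 1841 across Ko. Smarcb1, whose loss defines rhabdoid tumours, overlapped at 583 to 1137 in Het and 477 to 666 in Ko libraries. Smarcd1 was at 191, 272 and 250 across Het, against 249, 353 and 228 across Ko. Smarcd2 was at 711, 1071 and 1110 across Het, against 826, 1094 and 354 across Ko, with Ko3 far below the rest; without Ko3 its log2 fold change was 0.0080 in place of -0.47. Limma adjusted p-values of these 6 core genes lay between 0.498 and 0.912.

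The 4 genes listed under PRC2 overlapped between the groups in every case. Ezh2, the methyltransferase typical of dividing cells, was at 215, 353 and 281 normalized counts across Het, against 143, 253 and 271 across Ko. Ezh1, the methyltransferase typical of resting cells, was at 1195, 797 and 846 across Het, against 1251, 572 and 753 across Ko. Per kilobase of exon Ezh1 stood at 127 and 115 in Het and Ko libraries, above Ezh2 at 42.4 and 33.3. Eed, which reads methylated lysine 27, ranged from 588 to 1385 in Het and from 514 to 1005 in Ko libraries, and Suz12, which joins the core together, from 580 to 990 and from 915 to 1238. Limma adjusted p-values of the 4 genes lay between 0.529 and 0.857. Cycling cell markers took 0.00991% to 0.0217% of reads in Het and 0.0134% to 0.0194% in Ko libraries, with 13 of 15 markers above the filter and 0 called by limma. Their genes differed in direction: Mki67 overlapped at 5.59 to 37.2 normalized counts, Ccnb1 had means of 60.1 in Het and 482 in Ko libraries, and Ccnb2 had means of 251 and 15.1. DESeq2 called the latter 2 genes (adjusted p = 0.0159 and 0.0312).

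Ratios of paralogous subunits within a library do not depend on scaling, and 14 such pairs were compared. In 6 pairs, or 42.9%, the ratios of the groups did not overlap, where 28.4% of all 528 ratios between any 2 of the 33 members were apart. NuRD held 5 of the 6 among its 7 pairs, and the other complexes held 1 among 7. The shared pair of Rbbp4 and Rbbp7 was counted under NuRD. Each of the 5 NuRD pairs holds a gene whose own groups were apart (Chd3, Mta1, Mbd2, Rbbp4 or Gatad2b). The pair count is thus not independent of the count of genes apart. With 3 libraries against 3 the two-sided exact permutation test cannot go below 0.10, and each of the 6 pairs had this p (0.233 after Benjamini-Hochberg adjustment over the 14 pairs), so none passed.

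The log2 ratio of Rbbp4 to Rbbp7 had the largest difference, 1.23, with -0.80, -2.14 and -1.61 across Het, against -0.31, -0.41 and -0.15 across Ko. In linear terms there were 0.349 reads of Rbbp4 for each read of Rbbp7 in Het and 0.818 in Ko libraries. The Chd3 to Chd4 ratio was lower in Ko libraries, at -0.76, -1.20 and -0.20 across Het, against -1.70, -1.64 and -1.36 across Ko. The Gatad2a to Gatad2b ratio was also lower there, at 1.35, 0.48 and 0.74 across Het, against -0.58, 0.45 and 0.26 across Ko. Its gap between Het2 and Ko2 was narrow. The Mbd2 to Mbd3 ratio was higher, at 0.71, 0.55 and 0.73 across Het, against 1.72, 0.92 and 1.60 across Ko. The Mta1 to Mta2 ratio was higher by 0.63 and the Smarcd1 to Smarcd2 ratio by 0.67, the latter with Ko3 highest, the library in which Smarcd2 was low. Ratios of Hdac1 to Hdac2, Mta3 to Mta2, Sin3a to Sin3b, Ctbp1 to Ctbp2, Smarca2 to Smarca4, Smarcc1 to Smarcc2, Arid1a to Arid1b and Ezh1 to Ezh2 overlapped, with differences of 0.03 to 0.35 in size.

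**Figure D3:**
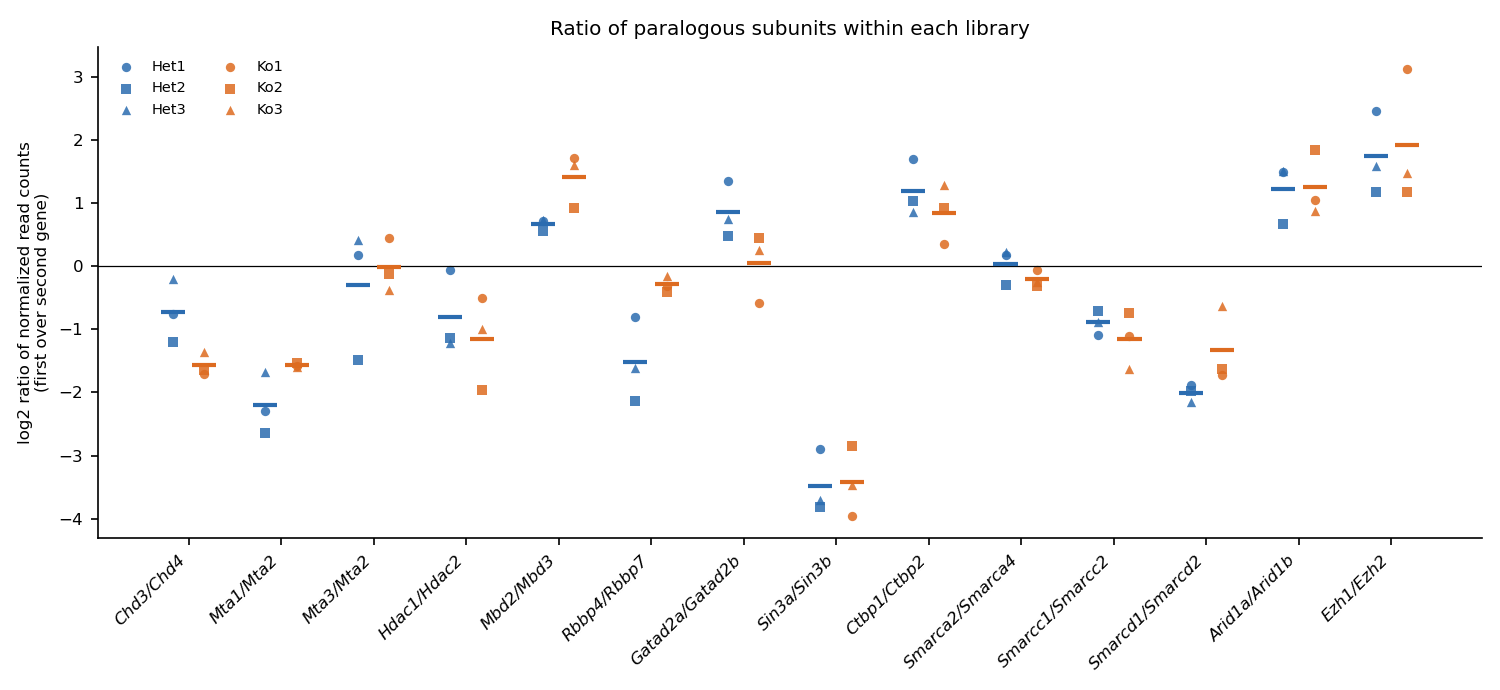
Log2 ratio of normalized read counts within each library for 14 pairs of paralogous subunits; points are libraries (Het blue, Ko orange) and bars are group means. The groups are apart for 6 pairs, among them Rbbp4/Rbbp7, with means of -1.52 in Het and -0.29 in Ko libraries.

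Levels of different genes were compared per kilobase of annotated exon. Rbbp7 was the most abundant member in both groups, at 1638 normalized reads per kilobase in Het and 921 in Ko libraries, and Chd5 the least, at 2.58 and 0.544. The other 31 members spanned 38.3 to 453 in Het and 33.3 to 519 in Ko libraries. Among the NuRD ATPases Chd4 stood at 272 and 351 and Chd3 at 154 and 112 in Het and Ko libraries. Mbd2 and Mbd3 were level in Het libraries, at 265 and 272, and stood at 519 and 318 in Ko libraries. Mta2, at 229 and 287, lay above Mta3, at 158 and 215, and Mta1, at 65.2 and 127. Smarca4, at 269 and 267, was above Smarca2, at 125 and 106.

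**Figure D4:**
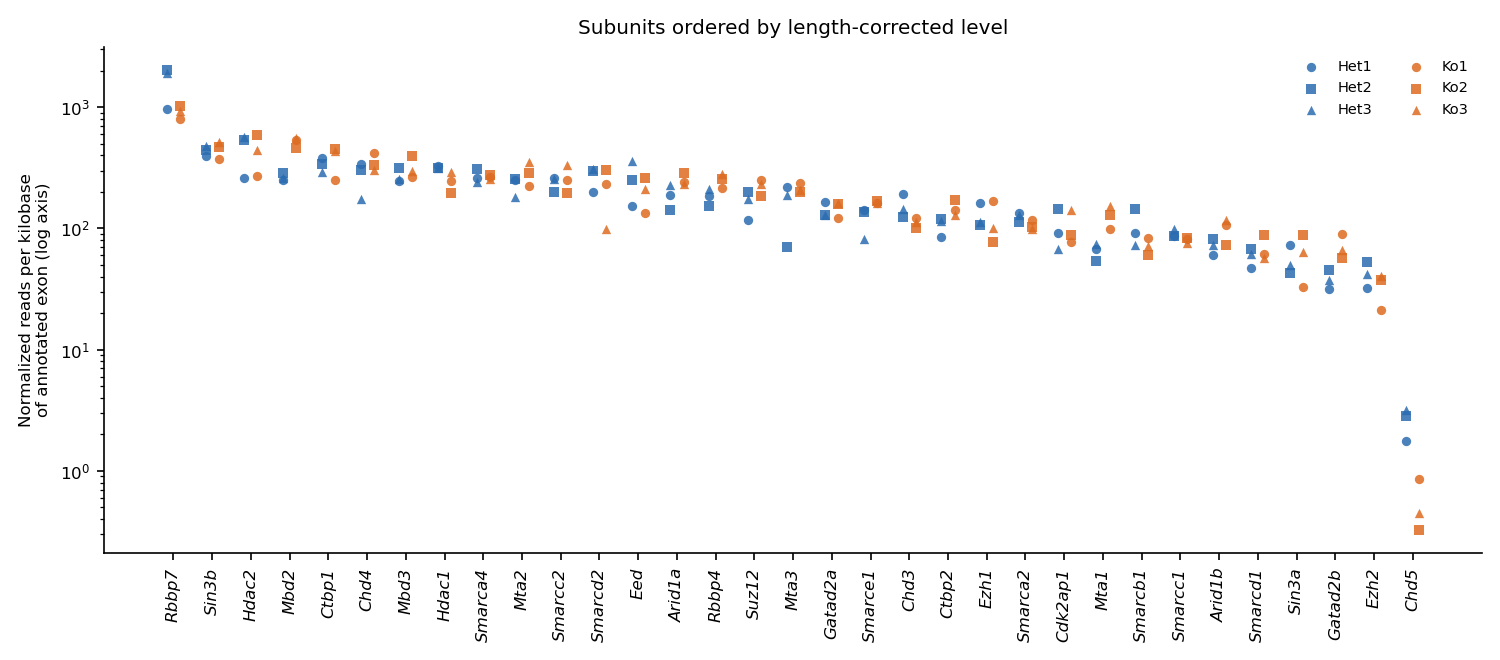
Normalized reads per kilobase of annotated exon (log axis) for the 33 subunits in the 6 libraries, ordered by their mean, with Het libraries in blue and Ko libraries in orange. Rbbp7 leads and Chd5 lies far below the other members.

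Summed over their members, the complexes overlapped between the groups except SWI/SNF. The 15 NuRD genes summed to 16225, 18850 and 18294 normalized counts across Het, against 17276, 18653 and 18892 across Ko, a ratio of means of 1.03. The ratio of Ko to Het was 1.04 for Sin3, 1.20 for CtBP, 1.07 for SWI/SNF and 0.981 for PRC2. Only the SWI/SNF sums were apart, at 11167, 11446 and 11575 across Het, against 12349, 12259 and 11879 across Ko. Their mean went from 11395.7 in Het to 12162.5 in Ko libraries. Arid1a alone went from a mean of 2128 to 2926, a larger step than that of the whole sum. Of the 10 SWI/SNF genes, 5 had a positive and 5 a negative log2 fold change.

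Of further subunits of these complexes and of Polycomb repressive complex 1 (PRC1), 88 of 91 listed genes in the table were tested and limma called 0; 7 were higher and 3 lower in Ko libraries at an unadjusted p under 0.05, together 11.4% against 13.6% of all tested genes. By list the share with such a p was 29.4% of 17 SWI/SNF partners and 37.5% of 8 PRC2 partners. It was 5% of 20 Sin3 partners, 5.26% of 19 PRC1 genes and 0% of NuRD and CtBP partners. EdgeR and voom called 0 of the 88 genes, and DESeq2 called Mxd1 and Pbrm1, where it called 6.34% of all genes. The median log2 fold change was -0.03 over 11 NuRD partners, 0.18 over 20 Sin3 partners, 0.28 over 13 CtBP partners, 0.17 over 17 SWI/SNF partners, 0.57 over 8 PRC2 partners and 0.04 over 19 PRC1 genes. Mxd1, a MYC antagonist that recruits Sin3, was at 2582, 1338 and 2275 normalized counts across Het, against 763, 780 and 735 across Ko (log2 fold change -1.39 ± 0.28, SE; limma adjusted p = 0.0567). Its groups were apart and the Ko libraries almost level, with Het2 the nearest Het library. Limma did not call Mxd1, nor did edgeR or voom (adjusted p = 0.0826 and 0.198). Pbrm1 and Arid2, which define the PBAF form of SWI/SNF, were at 2355 ± 443 and 1672 ± 363 in Het and at 3699 ± 69.7 and 2564 ± 333 across Ko (SD, n = 3 per group; limma adjusted p = 0.152 and 0.252). The groups of both genes were apart.

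The 2 lowest p-values in each remaining list belonged to genes that were not called. Ing2, a Sin3 subunit that binds methylated histone H3, was at 473 ± 139 in Het and 747 ± 94.0 across Ko (limma adjusted p = 0.385). Zeb1 and Zeb2, repressors that bind CtBP, were at 54.4 ± 33.0 and 84.7 ± 71.1 in Het and at 221 ± 179 and 258 ± 222 across Ko (limma adjusted p = 0.432 and 0.472). The PRC2 accessory genes Lcorl and Mtf2 were at 594 ± 111 and 581 ± 318 in Het and at 1323 ± 600 and 1043 ± 124 in Ko libraries (0.284 and 0.356, limma adjusted p). Of PRC1, Cbx6 was at 847 ± 164 and 1334 ± 322 and Pcgf5 at 1329 ± 197 and 861 ± 285 (0.339 and 0.368, limma adjusted p). For NuRD, Cdk2ap2 was at 657 ± 131 and 487 ± 96.9 and Kdm1a at 1605 ± 345 and 1321 ± 230 (0.615 and 0.696, limma adjusted p; SD, n = 3 each for all values of this paragraph). Among 14 other remodelling ATPases outside these complexes 0 were called by limma, edgeR or voom, 1 by DESeq2, and 1 had an unadjusted p under 0.05 (Chd7, higher in Ko libraries), which is 7.14% against 13.6% of all tested genes, with a median log2 fold change of 0.17.

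Markers of some other cell types differed in read share between the groups. In bulk RNA, fewer cells of a type and less RNA per cell cannot be told apart. Myeloid and dendritic markers (9 of 12 above the filter) took 0.0265% to 0.308% of reads in Het and 0.00613% to 0.0188% in Ko libraries, with Lyz2 the highest of them at 53300 normalized counts in Het1 and Itgax at 4.30 or less. Aire-stage epithelial markers (10 of 10) took 0.172% to 0.515% and 0.119% to 0.178%. Of the 9 myeloid and dendritic markers, 7 had a negative and 2 a positive log2 fold change of Ko over Het. All 10 Aire-stage markers had a negative one. At an unadjusted limma p under 0.05, 3 of the 9 and 4 of the 10 were lower in Ko libraries. These are 33.3% and 40% against 13.6% of all tested genes, and limma called 0 of either list. B cell markers (6 of 8) took 0.0140% to 0.0207% in Het and 0.0294% to 0.0365% in Ko libraries. Cd79b was the highest of them, at a mean of 3871 normalized counts over all libraries, while Ms4a1 was at 4.33 or less. Unlike the tuft cell list, the B cell and myeloid lists were not recounted without their highest gene. Among the 6 tested B cell markers the log2 fold change was positive for 4 and negative for 2. Limma gave 1 an unadjusted p under 0.05, or 16.7% against 13.6% of all tested genes, and called it (adjusted p = 0.0433). Thymocyte markers (9 of 16) took 0.00104% to 0.00366% and 0.00356% to 0.00771%, with Rag2 at 1.43 or less. Themis, the highest of them, was at 8.39, 58.9 and 79.4 across Het, against 434, 379 and 908 across Ko (limma adjusted p = 0.0735), and DESeq2 called it. Among the 9 tested thymocyte markers the log2 fold change was positive for 5 and negative for 4. Themis alone had an unadjusted limma p under 0.05, which is 11.1% against 13.6% of all tested genes. Cortical epithelial markers (7 of 7) took 0.0755% to 0.146% and 0.0921% to 0.106%, and mesenchymal and endothelial markers (10 of 10) took 0.0147% to 0.0235% and 0.0162% to 0.0746%. Erythroid markers (4 of 6) reached 0.0548% in Het3 and at most 0.00174% elsewhere. The part of any such cells, and of the higher ribosomal protein share of Ko libraries, in the subunit values was not tested.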

How the data were processed

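Sorted L1CAM+ tuft cells went directly into lysis buffer for SMART-seq, per the labels' protocols. STAR 2.7.9a, GRCm39 and DESeq2 are named in the submitters' processing notes; the read counter, gene models, strand setting and filtering have no source here, nor has the handling of reads shared with paralogues or pseudogenes. The deposited table is a signal: each library holds read counts scaled by its own size factor. Per the file headers, the authors' deposited comparison lists for every gene the log2 fold change, its error, a test score and the raw and adjusted p-value.

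Each column was divided by the value of 1 read, which gave whole reads within 0.01 for 100% of values above 0. In the least deep libraries 3 reads equal 4.33 (Het3) and 4.30 (Ko3) normalized counts. Symbols came from a gene name table (55144 of 55471 genes matched). Genes with a mean of at least 10 were tested on log2(value + 1) in R 4.3.3 by limma 3.58.1 (a trended, two-sided moderated fit, genotype as the only term, Benjamini-Hochberg adjustment over 19416 genes, threshold 0.05); fold changes on this scale understate those of low genes. The fits were tested on simulated data. Exon lengths are unions of GENCODE M21 exons (GRCm38), which include rarely used exons, so levels per kilobase are approximate.

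The members, paralogue pairs and lists were chosen with earlier results of these data known. All members could be named; of partner lists, called genes and up to 2 with the smallest p were named, and of marker lists those near 0 or highest. Other markers, Chd7 and the SWI/SNF partners in the closing observations were chosen after their values were seen. Alternatives were pseudocounts of 0.5, 5 and 20, filtering at 50 or not at all, TMM and equal-total scaling, edgeR 4.0.16, DESeq2 1.42.0 and voom on recovered reads, a block by column number, and leaving out each library.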

Additional observations from a re-analysis of the deposited data

How the results depend on the processing

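The count of 0 called members held under 15 of 17 alternatives; DESeq2 called 2 (Mbd2 and Rbbp7), and leaving out single libraries gave 0 to 1, the 1 being Rbbp7 without Het1. The count of called partners was 0, and became 1 (Mxd1) with a pseudocount of 5, a pseudocount of 20 or a filter at a mean of 50, and 2 (Mxd1 and Pbrm1) with DESeq2. Members apart between groups numbered 10 to 16 and apart paralogue ratios 6 to 7 under their alternatives. Leaving out a library cannot make apart groups overlap, so without single libraries these counts could only stay or rise. Members apart numbered 10 under TMM and under equal-total scaling. The ratios of complex sums moved by less than the spread between replicates. Ikzf1 kept its direction (log2 fold change 2.46 to 2.80 without single libraries) and lost its call without Het3 (2.73, limma adjusted p = 0.0621). The labels give no shared replicate numbers, and same-numbered columns did not clearly deviate together (r = 0.025, 0.0214 and -0.0153 across genes). With 3 libraries per group these values cannot settle whether same-numbered libraries shared a batch. A replicate block by column number called 0 members and 87 genes in all, against 158.

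Signs turned for 10 members, whose main log2 fold changes were up to 0.47 in size. Smarca4 was at 0.012 with TMM, 0.018 with equal totals and 0.0055 with edgeR; with voom Hdac2 was at 0.048 and Cdk2ap1 at -0.068. Without single libraries the log2 fold change ran from -0.41 to 0.26 for Hdac2, -0.015 to 0.19 for Gatad2a, -0.21 to 0.34 for Cdk2ap1, -0.23 to 0.48 for Sin3a, -0.068 to 0.16 for Sin3b, -0.029 to 0.39 for Ctbp1, -0.083 to 0.10 for Smarca4, -0.10 to 0.28 for Smarcc2, -0.80 to 0.0080 for Smarcd2 and -0.50 to 0.061 for Ezh1. The cause was not tested. The other 23 members kept their sign. With 1 library left out, limma calls over all genes ran from 0 without Het3 to 116 without Ko1; edgeR called 75, voom 40 and DESeq2 1118.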

Other observations

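Some SWI/SNF partners are given as values, chosen after they were seen, so that their differences are no support for a pattern. Actl6b, the neuronal counterpart of Actl6a, had 5, 3 and 1 reads across Het, against 25, 67 and 10 across Ko. Dpf3, a reader of acetylated and methylated histones, had 7, 12 and 3 reads and 62, 39 and 27 reads in the same order. Actl6a was at 513, 1004 and 443 normalized counts across Het, against 90.5, 364 and 374 across Ko. Limma adjusted p-values of these genes were 0.312, 0.303 and 0.333. Other subunits known from the neuronal form overlapped. Smarcd3 had 9, 137 and 0 reads across Het, against 74, 70 and 13 across Ko. Ss18l1 was at 74.9, 269 and 40.4 normalized counts across Het, against 71.0, 223 and 370 across Ko (limma adjusted p = 0.699). Dpf1 was at 4.47, 3.55 and 8.66 across Het, against 6.17, 7.25 and 12.9 across Ko.

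Same-numbered libraries were the extremes of their groups for a few members. Het1 and Ko1 were both lowest for 18.2% of members and 13.1% of tested genes, and both highest for 15.2% and 12.0%. Het2 and Ko2 were both lowest for 12.1% and 10.6%, and both highest for 15.2% and 11.9%. Het3 and Ko3 were both lowest for 6.06% and 10.6%, and both highest for 9.09% and 10.1%.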
